A study of Mus musculus with 12 samples.

Results

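mTORC1 is the protein kinase complex that turns on protein synthesis when insulin and amino acids are plentiful, and a set of smaller proteins holds it back. In the liver its activity follows the meal, being high after feeding and low in fasting. Insulin reaches the complex by switching off the TSC complex, which otherwise keeps the small GTPase RHEB inactive, while amino acids reach it through the RAG GTPases on the lysosome. The 10 genes described here are Ddit4, Sesn1, Sesn2, Sesn3, Deptor, Tsc1, Rragd, Eif4ebp1, Eif4ebp2 and Eif4ebp3. They were taken by their symbols from a table of 17432 genes. Most encode proteins of these routes, while Deptor encodes a protein that binds mTOR itself. The Eif4ebp genes encode proteins that mTORC1 phosphorylates. Ddit4 was chosen by its large difference in CPM between exercised and sedentary livers, so its values are given as a description with no test.

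Liver RNA was sequenced from 6 sedentary (Sedentary) and 6 exercised (Exercise) wild-type mice, which were male C57BL/6J animals of 8 to 10 weeks. All mice had been trained for 3 days to eat by day and fast by night. On the day of the experiment every mouse was refed in the morning and lost its food when the run began, so the sedentary mice were also without food during the 3 hours in which the other group ran on a treadmill at 14 m/min. Livers of both groups were sampled together when the run ended. The question is how a single bout of exercise after a meal changes the transcripts of the mTORC1 pathway genes named above.

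Between 18745379 and 19324461 estimated counts were assigned to genes in each library. Levels are given as CPM (counts brought to a common library size, with TMM scaling for differences in composition), or as FPKM where genes are compared with each other, because FPKM is also divided by transcript length. Differences are log2 fold changes, Exercise over Sedentary. Their standard errors, intervals and adjusted p come from the quasi-likelihood test of edgeR, adjusted by the Benjamini-Hochberg method over all 12344 genes tested. Of those genes, 42.4% passed an adjusted p of 0.05, 21.1% higher and 21.3% lower after exercise. Hepatocyte transcripts were abundant in the libraries, since hepatocyte markers such as Alb and Apoa1 summed to 125000 to 171000 CPM. Exercise replicate 1 stood apart in genes outside this set. For example, it held 94.8 estimated counts of Trim12a, while sedentary livers held 120 to 134 and the other 5 exercised livers 905 to 1083. It also held 106 estimated counts of Myh6, where sedentary livers held 85.2 to 212 and the other 5 exercised livers 0. In these genes it sat with or near the sedentary livers, and in Ddit4 with the exercised livers. The other 5 exercised livers thus differed in these genes from every sedentary liver too, nearly along the comparison of groups. What sets these livers apart, and its part in the differences between groups, was not tested. The lowest level, spread, share and log2 fold change of Ddit4 are also given without it. Other Ddit4 values, such as the mean, the places among all genes and the correlations, include it.

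Sesn1, Sesn2, Tsc1, Eif4ebp1 and Eif4ebp2 rose after exercise. The calls of Eif4ebp1 and Eif4ebp2 were lost under some other scalings or methods, and that of Eif4ebp1 also when single livers were left out. Sesn3, Deptor and Eif4ebp3 did not pass the test. Rragd was lower, but it passed the filter on low counts only through its sedentary livers. With Rragd 6 of the 9 genes other than Ddit4 passed, beside 42.4% of all genes tested, and 5 of 8 passed when at least 10 counts were required in every library. Their median log2 fold change was 0.22, beside -0.003 over all genes. The set was put together with earlier results of these data in view, so nothing is read from these counts about the set as a whole. The groups did not overlap in 4 of the 9 (Sesn1, Sesn2, Tsc1 and Eif4ebp2), beside 22.3% of all genes tested. In bulk liver, a change in the number of cells that express a gene and a change in transcripts per cell cannot be told apart.

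**Figure D1:**
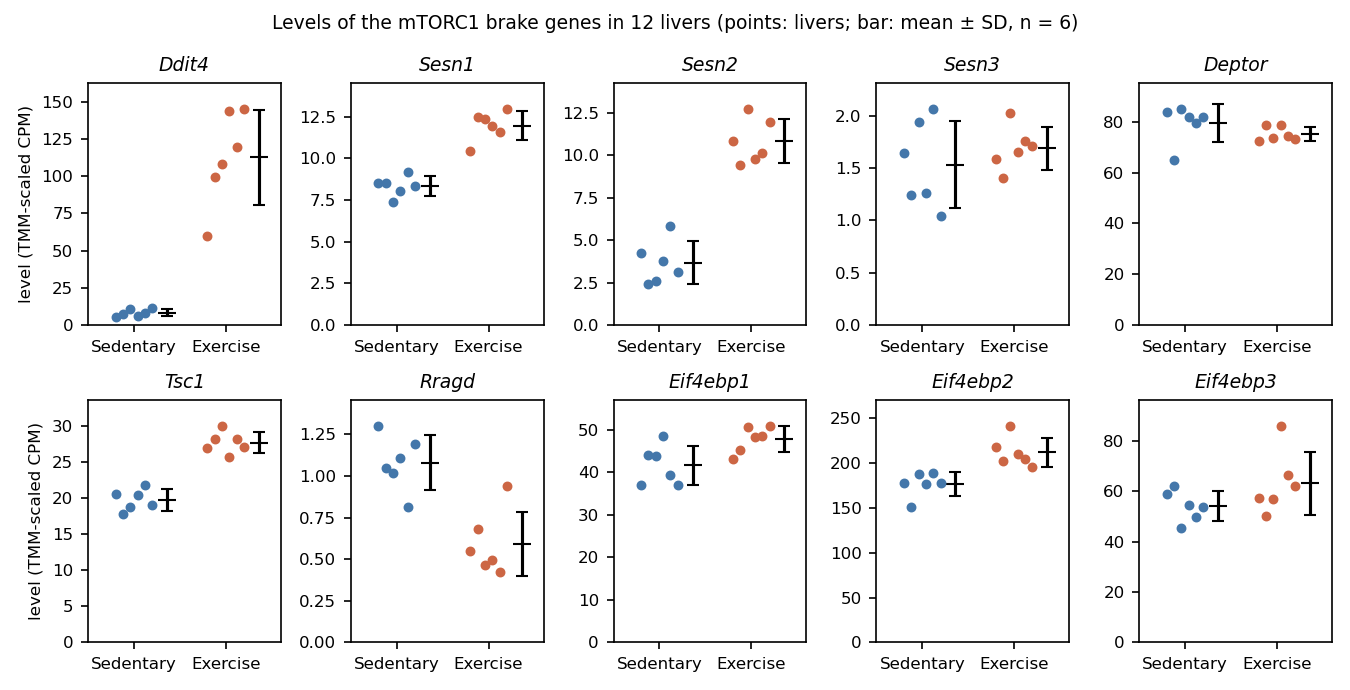
Level of each of the 10 genes in TMM-scaled CPM (vertical axes, linear from 0) for 6 sedentary livers (blue) and 6 exercised livers (orange), with the mean and SD of each group as a bar. The groups are separate for Ddit4, Sesn1, Sesn2, Tsc1 and Eif4ebp2 and overlap for the other genes.

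Ddit4 (gene ID 74747; chromosome 10 of GRCm38, 59949669 to 59951834) encodes REDD1, a small protein induced by stress and glucocorticoids that restrains mTORC1 through the TSC complex. In sedentary livers Ddit4 ran from 5.65 to 11.7 CPM with a median of 7.93. In exercised livers it ran from 60.2 to 145 CPM with a median of 114. The lowest exercised liver, Exercise replicate 1, was 5.16-fold above the highest sedentary liver, and the next lowest, at 99.1 CPM, was 8.5-fold above it. The group means were 8.42 ± 2.49 and 113 ± 31.7 CPM (SD, n = 6 each), a ratio of 13.4 and a log2 fold change of 3.74, or 3.87 without Exercise replicate 1.

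Livers of the same group also differed in Ddit4. Its highest level was 2.41-fold above its lowest among exercised livers and 2.07-fold among sedentary livers. The coefficient of variation was 28.2% and 29.6%, respectively, where counting error alone would give 2.2% and 7.74%. Without Exercise replicate 1 the exercised livers differed 1.46-fold, with a coefficient of variation of 16.9%.

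Per transcript length, Ddit4 moved from the middle to the top of the set. It was in place 5 of the 10 genes in every sedentary liver, below the 4E-BPs and Deptor and above the others. It was the highest of the 10 in 5 of 6 exercised livers and in place 4 in Exercise replicate 1. Its share of the summed FPKM of the set ran from 2.33% to 4.93% in sedentary livers and from 18.9% to 34.5% in exercised livers, or from 27.7% without Exercise replicate 1. Among all genes of the table it lay between places 4803 and 6861 by FPKM in sedentary livers and between places 794 and 1555 in exercised livers.

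Ddit4 and Sesn2 had the largest positive log2 fold changes of the set, and the sequence before their start sites is shown for that reason. RefSeq promoter windows (GRCm38.p6) were found for 7 of the 10 genes, namely Ddit4, Sesn1, Sesn2, Sesn3, Tsc1, Rragd and Eif4ebp2. The stretches printed run from 250 bases before the RefSeq start to the base before the more distant GENCODE start, 5′ to 3′ on the minus strand, on which both genes lie. Capitals mark CCAAT boxes, which read ATTGG on this strand, and the HIF core ACGTG. The Ddit4 stretch is chr10:59951835-59952020 and the Sesn2 stretch is chr4:132510502-132510706.
Ddit4: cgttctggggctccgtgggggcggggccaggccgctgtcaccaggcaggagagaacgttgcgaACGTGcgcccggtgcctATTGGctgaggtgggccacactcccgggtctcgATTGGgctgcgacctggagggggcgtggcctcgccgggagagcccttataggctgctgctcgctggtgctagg
Sesn2: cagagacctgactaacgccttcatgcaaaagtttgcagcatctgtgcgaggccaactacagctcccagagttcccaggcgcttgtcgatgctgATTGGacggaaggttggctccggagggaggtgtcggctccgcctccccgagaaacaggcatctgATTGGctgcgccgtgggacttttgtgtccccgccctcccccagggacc

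In the 250 bases before the start, searched on both strands, Ddit4 held CCAAT 2 times, with first bases at -170 and -137, and ACGTG once, at -187. Eif4ebp2 also held ACGTG once, at -182. Sesn2 held CCAAT 2 times, at -157 and -93. Of 32851 such windows in the mouse genome, 33.8% hold CCAAT, 10.1% hold it 2 or more times, and 16.6% hold ACGTG. The CCAAT box was added to the search after the sequences had been seen. Sesn3, which did not pass the test, held CCAAT 4 times, and Sesn1 held it once in each of its 2 windows. The other motifs searched were CACGTG, the E-box of TFEB and TFE3, which contains ACGTG (6.02% of windows), TGATGNA, the first letters of the ATF4 composite site (10.4%), TGTTCT, the half-site of the glucocorticoid receptor (16.1%), and GTAAACA of FOXO factors (3.17%). None of these letters occurred in the windows of the 7 genes. The GC box GGGCGG (32.7%) occurred in those of Ddit4, Sesn1, Sesn2, Sesn3 and Eif4ebp2.

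Tsc1 (gene ID 64930; chromosome 2, 28641228 to 28691167) encodes the subunit that stabilizes TSC2, through which REDD1 acts. Tsc1 ran from 17.8 to 21.9 CPM in sedentary livers (median 19.7) and from 25.7 to 30.0 CPM in exercised livers (median 27.6). Every exercised liver was above every sedentary liver. Tsc1 rose with a log2 fold change of 0.49 (standard error 0.062, edgeR adjusted p = 7.96e-06). Its partner Tsc2, which carries the GTPase-activating domain, was at 44.8 ± 2.53 and 44.1 ± 2.21 CPM (SD, n = 6 each) and did not pass the test (log2 fold change -0.02, edgeR adjusted p = 0.764). The third subunit, Tbc1d7, fell (-0.46, edgeR adjusted p = 0.000562). Rheb, the GTPase that the complex acts on, rose by little (0.16, edgeR adjusted p = 0.0213). This call was lost under library size scaling (0.07, edgeR adjusted p = 0.374) and Rplp0 scaling (0.12, edgeR adjusted p = 0.21). It was also lost with limma on FPKM and without Sedentary replicate 6 or Exercise replicate 2. The subunits of the TSC complex therefore changed in different directions.

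The sestrins are stress-induced proteins that bind GATOR2 and thereby keep amino acids from activating mTORC1 through the RAG GTPases, and Sestrin2 is a leucine sensor. Sesn2 (gene ID 230784; chromosome 4, 132492032 to 132510501) had the largest change of the 9 tested genes. It ran from 2.43 to 5.87 CPM in sedentary livers (median 3.45) and from 9.45 to 12.7 CPM in exercised livers (median 10.5). No exercised liver came down to the sedentary range. The log2 fold change of Sesn2 was 1.56, which is 2.95-fold (standard error 0.17, edgeR adjusted p = 3.67e-06). Sedentary livers differed among themselves 2.41-fold in Sesn2 and exercised livers 1.35-fold, from 51 to 108 and from 178 to 220 counts.

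Sesn1 (gene ID 140742; chromosome 10, 41809935 to 41908424), a p53 and FOXO target, rose less. It ran from 7.39 to 9.18 CPM in sedentary livers (median 8.44) and from 10.4 to 13 CPM in exercised livers (median 12.2), again without overlap. Its log2 fold change was 0.52 (standard error 0.075, edgeR adjusted p = 3e-05).

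Sesn3 (gene ID 75747; chromosome 9, 14275067 to 14333101), a FOXO target, was scarce, with 21 to 38 counts per liver. It ran from 1.04 to 2.07 CPM in sedentary livers and from 1.41 to 2.03 CPM in exercised livers, and the groups overlapped. The log2 fold change of Sesn3 was 0.14 with a 95% interval from -0.24 to 0.53 (edgeR adjusted p = 0.559), so a change of the size of Sesn1 was not excluded at this depth.

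The makeup of the sestrin family was compared by the share of each gene in their summed FPKM, a measure that does not depend on how libraries are scaled to each other. Sesn2 made up 26.8% ± 5.68 of sestrin FPKM in sedentary livers and 44.7% ± 2.74 in exercised livers (SD, n = 6 each). The ranges, 20.2% to 35.2% and 40.9% to 47.7%, did not overlap, and the difference was 17.9 percentage points (exact permutation of group labels, two-sided, p = 0.00216, the smallest for 6 against 6, or 0.00649 adjusted over the 6 shares compared). Sesn1 went from 59.1% ± 6.25 to 46.7% ± 3.12 (exact p = 0.00433, adjusted 0.00866). Sesn3 went from 14.1% ± 3.23 to 8.63% ± 0.704 (exact p = 0.00216, adjusted 0.00649). The 3 shares sum to the whole, so the lower shares of Sesn1 and Sesn3 are not results separate from the Sesn2 share. The level of Sesn3 itself was 0.747 ± 0.178 FPKM in sedentary and 0.772 ± 0.0717 FPKM in exercised livers. Sesn1 was above Sesn2 in FPKM in every sedentary liver, while their levels overlapped among exercised livers, at 4.17 ± 0.349 and 4.00 ± 0.37 FPKM (SD, n = 6 each). The summed level of the 3 sestrins was 4.73 to 6.2 FPKM in sedentary livers and 8.36 to 9.74 FPKM in exercised livers.

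**Figure D2:**
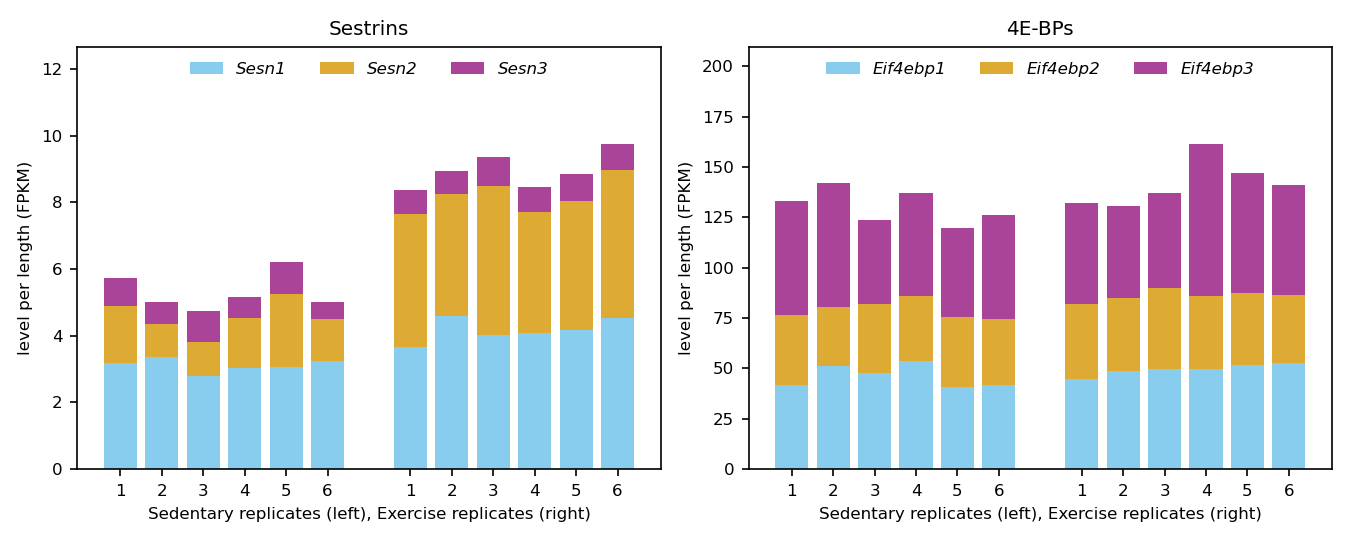
Summed level per length (FPKM, vertical axes from 0) of the 3 sestrin genes (left) and the 3 4E-BP genes (right) in each of 12 livers, 1 stacked bar per liver, replicates numbered within each group. The Sesn2 part of the sestrin bar is 20.2% to 35.2% in sedentary livers and 40.9% to 47.7% in exercised livers, while the parts of the 4E-BP bar keep similar proportions.

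Rragd (gene ID 52187; chromosome 4, 32983037 to 33022180) encodes a RAG GTPase. RAG GTPases bring mTORC1 to the lysosome and are part of its activation, so Rragd is not an inhibitor by its known role. It was the scarcest gene of the set, with 14.8 to 26 estimated counts in sedentary livers and 7.99 to 17.1 in exercised livers. Levels ran from 0.815 to 1.3 CPM (median 1.08) and from 0.426 to 0.938 CPM (median 0.521), and the highest exercised liver, Exercise replicate 6, lay within the sedentary range. The fit gave Rragd a log2 fold change of -0.86 (standard error 0.22, edgeR adjusted p = 0.00432). Since 6 of 6 sedentary but 3 of 6 exercised livers had at least 10 counts, it was tested only because of the group in which it was high, and nothing is supported with this call. It is also 1 of 2 genes of the set, with Deptor, with fractional counts, which arise when RSEM divides a read between genes. Rragc, the abundant relative of Rragd, was at 31.6 ± 1.53 and 31.9 ± 2.23 CPM (SD, n = 6 each) with no change past the threshold (edgeR adjusted p = 0.877).

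Deptor (gene ID 97998; chromosome 15, 55112317 to 55259271) encodes a protein that binds mTOR itself and inhibits it. Its levels ran from 65.0 to 85 CPM in sedentary livers (median 82.0) and from 72.4 to 78.8 CPM in exercised livers (median 74.0). The exercised range lay inside the sedentary one. The log2 fold change of Deptor was -0.08 with a 95% interval from -0.21 to 0.05 (edgeR adjusted p = 0.314). Sedentary replicate 2 was the low liver, and without it Deptor was lower after exercise (-0.14, edgeR adjusted p = 0.0411). The same call was made under library size scaling (-0.18, edgeR adjusted p = 0.0336), so the test of Deptor depended on 1 liver and on scaling.

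The 4E-BPs bind the cap-binding protein eIF4E and block the start of translation until mTORC1 phosphorylates them. Only transcripts were measured here, not the phosphorylation by which these proteins are mainly controlled. The 3 4E-BP genes were the most abundant of the set per length in sedentary livers, at 51.0 ± 7.33 FPKM for Eif4ebp3, 46.2 ± 5.49 for Eif4ebp1 and 33.1 ± 2.18 for Eif4ebp2 (SD, n = 6 each). Eif4ebp3 and Eif4ebp1 overlapped between livers, and both lay above Eif4ebp2 in the sedentary group.

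Eif4ebp2 (gene ID 13688; chromosome 10, 61428491 to 61452661) ran from 151 to 188 CPM in sedentary livers (median 177) and from 195 to 241 CPM in exercised livers (median 207), without overlap. Its rise was small (log2 fold change 0.26, standard error 0.065, edgeR adjusted p = 0.00321). The call was lost when libraries were scaled to Rplp0 (0.22, edgeR adjusted p = 0.0535) and with limma on log2(FPKM + 0.1) (0.15, limma adjusted p = 0.0531).

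Eif4ebp1 (gene ID 13685; chromosome 8, 27260329 to 27276674), an ATF4 target, ran from 36.9 to 48.4 CPM in sedentary livers and from 43.1 to 50.8 CPM in exercised livers, and the groups overlapped. It rose with a log2 fold change of 0.20 (standard error 0.071, edgeR adjusted p = 0.0316). This call did not hold when any of 7 livers was left out (Sedentary replicates 1, 5 and 6 and Exercise replicates 3 to 6, edgeR adjusted p from 0.0521 to 0.0772), nor under 3 other scalings or limma on FPKM.

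Eif4ebp3 (gene ID 108112; chromosome 18, 36664060 to 36665917) ran from 45.6 to 62.3 CPM in sedentary livers and from 50.1 to 86.0 CPM in exercised livers, with overlap and with its highest value in Exercise replicate 4. The log2 fold change of Eif4ebp3 was 0.22 with a 95% interval from -0.02 to 0.46 (edgeR adjusted p = 0.133), and it passed only without Exercise replicate 2 (0.28, edgeR adjusted p = 0.0475). Eif4ebp3 lies downstream of Ankhd1 on the same strand and overlaps a gene model that extends from within Ankhd1. The counts of Eif4ebp3 were whole in every library. The annotation used is not known, so reads of these genes may still not be fully separable. Ankhd1 rose (log2 fold change 0.38, edgeR adjusted p = 4.43e-05).

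In contrast to the sestrins, no shift in the makeup of the 4E-BP family was detected. Eif4ebp1 made up 35.4% ± 3.08 and 35.1% ± 2.48 of 4E-BP FPKM, Eif4ebp2 25.6% ± 3.03 and 26.0% ± 2.78, and Eif4ebp3 39.0% ± 3.64 and 38.9% ± 4.41 (SD, n = 6 sedentary and 6 exercised). The differences were -0.325, 0.467 and -0.141 percentage points (two-sided exact permutation tests, adjusted p = 0.95 for each). Whether the sestrin shares shifted by more than the 4E-BP shares was not tested.

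The target of the 4E-BPs, Eif4e, fell from 48.5 ± 4.33 to 42.0 ± 2.38 CPM (log2 fold change -0.21, edgeR adjusted p = 0.0141). The ratio of summed 4E-BP FPKM to Eif4e FPKM, a measure chosen after seeing the data, ran from 4.58 to 6.15 in sedentary livers (median 4.86) and from 5.72 to 7.37 in exercised livers (median 6.66). It was higher after exercise by 1.64, with some overlap between the groups. Because the ratio was chosen from these same values, this difference is a description only.

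**Figure D3:**
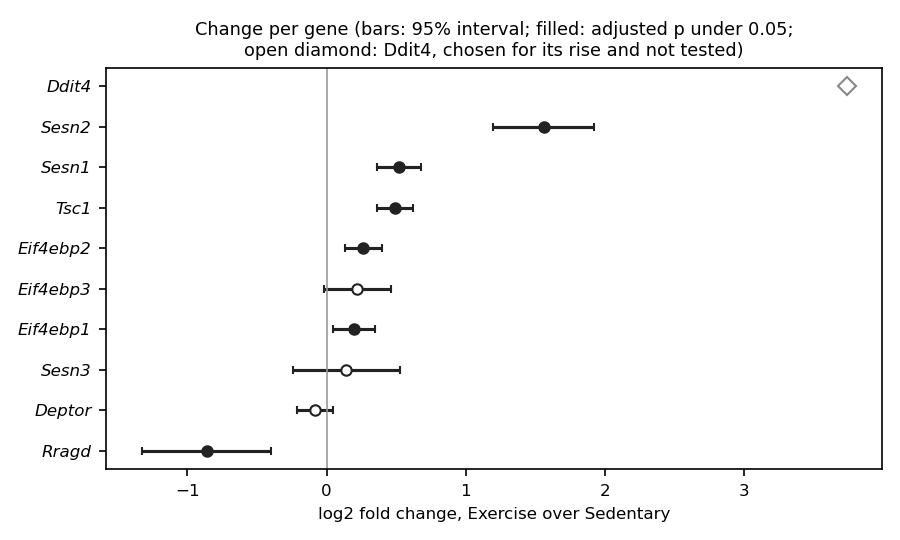
Log2 fold change of each gene, Exercise over Sedentary (horizontal axis), with 95% intervals from the edgeR fit (filled points passed an adjusted p of 0.05, open points did not). Ddit4, at 3.74, is drawn without an interval because it was chosen for this difference, and Sesn2, at 1.56, is the farthest from 0 of the genes tested.

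Variation among livers of 1 group was not used in choosing Ddit4 and was compared with that of the other 9 genes. Of 18 relations, 9 genes in each group of 6 livers, none passed after adjustment (Pearson's r, exact permutation test over 720 pairings, smallest adjusted p = 0.5), and 1 had an unadjusted p below 0.05. That was Eif4ebp1 among exercised livers (n = 6, Pearson's r = 0.83, exact p = 0.0278; Spearman's rho = 0.77, exact p = 0.103). Without the 2 livers farthest from the median of Ddit4 its r was 0.34, but too few livers then remain to say what the relation rests on. Sesn2 had an r of -0.36 with Ddit4 among sedentary livers and 0.04 among exercised livers. The livers with more Ddit4 were thus not detectably those with more Sesn2 within a group, although both genes were higher in all exercised livers.

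The genes most like Ddit4 within groups were sought among 11533 genes whose mean CPM was 1 or more, by the smaller of their 2 correlations. They were Zfp553 (r = 0.94 among sedentary and 0.92 among exercised livers, n = 6 each), Zgpat (0.82 and 0.90), Lpin3 (0.81 and 0.86), Rrnad1 (0.79 and 0.88) and Tm7sf2 (0.80 and 0.77). As the highest of so many values they are a description only. The correlations among exercised livers include Exercise replicate 1, the lowest exercised liver in Ddit4. None of them had a difference between groups near that of Ddit4, their log2 fold changes running from -0.21 for Lpin3 to 0.29 for Zfp553. Of the 8 other genes of the set that were abundant enough to be ranked, Deptor stood highest, in place 1696.

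Other genes of the mTORC1 pathway changed in both directions. Of 57 genes in a hand-written list that leaves out the 10 genes above, 55 were tested, and 16 rose, 15 fell and 24 did not pass (56.4% passed, beside 42.4% of all genes), with a median log2 fold change of -0.06. The balance depended on scaling, with 14 higher and 20 lower under upper quartile, 9 and 24 under library size alone, 10 and 14 under Rplp0 and 9 and 22 under limma on FPKM. Among the 4 core subunits, 2 fell and none rose. Mtor, the kinase, went from 29.1 ± 1.22 to 24.6 ± 1.65 CPM (SD, n = 6 each; log2 fold change -0.24, edgeR adjusted p = 0.00272). Rptor, which recruits substrates, was at 30.6 ± 3.48 and 29.3 ± 1.6 CPM and did not pass (edgeR adjusted p = 0.523).

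Of the amino acid route, 3 of 7 RAG and Ragulator genes tested changed (1 higher, 2 lower), among them Lamtor1, part of the lysosomal anchor, which fell by 0.41 on the log2 scale (edgeR adjusted p = 1.82e-05). Of GATOR1, which switches off the RAG GTPases, 1 gene rose and 1 fell. GATOR2, the complex the sestrins bind, had 1 rise and 2 falls among 5 genes, and the rise was Wdr59 (0.55, edgeR adjusted p = 3.62e-05). Of KICSTOR and the nutrient sensors, 2 of 7 rose and 2 fell, with Kptn at -0.51 (edgeR adjusted p = 4.59e-05). In the folliculin complex, which acts on RRAGC and RRAGD, 2 of 3 genes rose. Its subunit Flcn went from 14.2 ± 2.2 to 20.8 ± 2.88 CPM (0.55, edgeR adjusted p = 0.000523).

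Of the 15 substrates of mTORC1 and their partners, 6 rose and 4 fell. Ulk1, the kinase that starts autophagy, rose from 78.5 ± 9.05 to 129 ± 3.96 CPM (SD, n = 6 each; log2 fold change 0.72, edgeR adjusted p = 4.04e-07). Lpin1, a phosphatidate phosphatase and transcriptional co-regulator, rose from 204 ± 100 to 947 ± 120 CPM (2.21, edgeR adjusted p = 0.000176). Tfe3, a transcription factor of lysosome genes, and Maf1, a repressor of RNA polymerase III, rose by 0.46 and 0.53 on the log2 scale (edgeR adjusted p = 1.01e-05 and 8.25e-05). Eef2k, a kinase that slows elongation, fell from 7.35 ± 1.02 to 4.25 ± 0.609 CPM (-0.79, edgeR adjusted p = 3.48e-05). In mTORC2, 1 of 4 genes fell. Among the paralog and partners of REDD1, 2 of 4 rose, while the paralog Ddit4l itself was at 0.767 ± 0.107 and 0.914 ± 0.277 CPM and did not pass (edgeR adjusted p = 0.39).

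**Figure D4:**
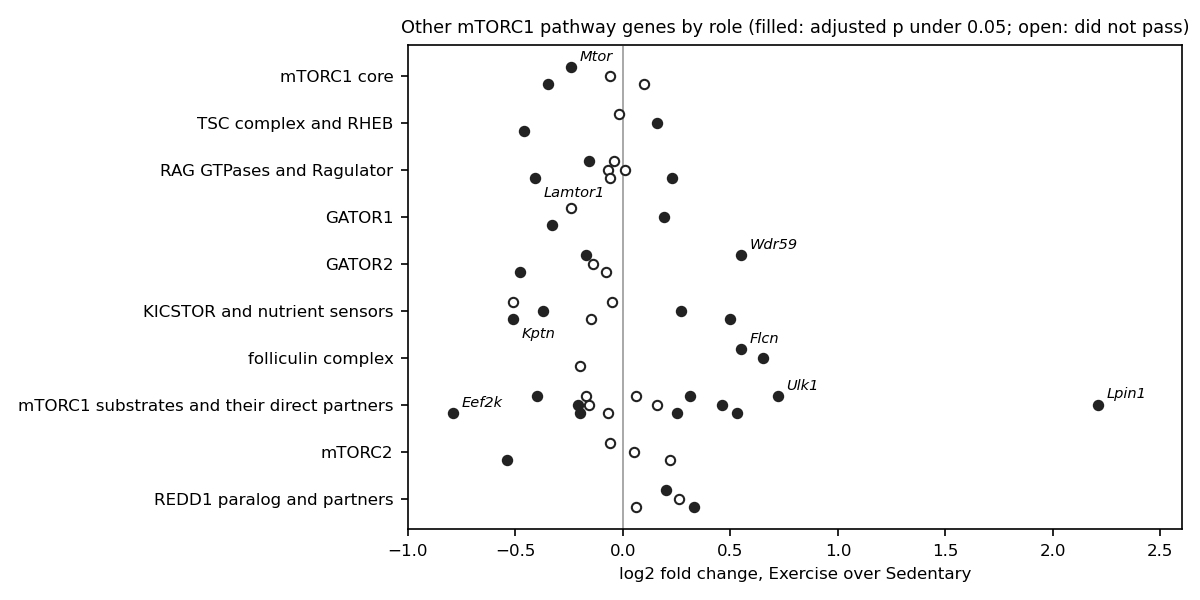
Log2 fold change, Exercise over Sedentary (horizontal axis), of the 55 other mTORC1 pathway genes tested, 1 point per gene, arranged by role (vertical axis, with small offsets only to separate points). Filled points passed an adjusted p of 0.05 in the edgeR test (16 higher, 15 lower) and lie on both sides of 0 in 6 of 10 roles, with Lpin1 at 2.21 as the farthest.

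Markers of other liver cells were read beside these results. Of 33 markers of Kupffer, sinusoidal endothelial, stellate, bile duct and blood cells, 27 were tested. Of these, 3 rose and 3 fell (22.2% passed, beside 42.4% of all genes). Their summed level was 418 to 527 CPM in sedentary livers and 415 to 602 CPM in exercised livers, and none was at 0 in all libraries. The 3 that rose were the sinusoidal endothelial markers Lyve1, Oit3 and Pecam1 (log2 fold change 1.18, 0.55 and 0.49, edgeR adjusted p = 0.00245, 0.0287 and 0.000675). The 7 markers of these cells summed to 142 to 197 CPM in sedentary livers and 160 to 241 CPM in exercised livers. Another of these 7, Kdr, fell (log2 fold change -0.19, edgeR adjusted p = 0.0412). The other falls were the stellate cell markers Lrat and Des (-0.59 and -0.40, edgeR adjusted p = 0.0316 and 0.0206). The part of these cells in the changes above was not tested.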

How the data were processed

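Liver RNA of 12 mice was sequenced. Per the labels' processing notes, Bowtie2 2.3.4.3, RSEM 1.3.1 and mm10 were used. The annotation and strand setting are not given in the sources used here. The authors deposited an estimated count and an FPKM value per gene and library. Of the estimated counts, 31.3% were not whole, and they are not scaled between libraries. The deposited FPKM values are scaled for length and depth. No pair of libraries was identical, and within a group the chi-square per gene was 7.53 to 42.13, well above sampling noise.

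Groups came from the sample titles. Counts were rounded and tested with edgeR 4.0.16 in R 4.3.3, in a model of the 2 groups. This used TMM factors, the filterByExpr minimum of 10 counts, the robust option of the quasi-likelihood fit, and Benjamini-Hochberg adjusted p under 0.05. Biological variation between livers came to 11.3%. Shares and correlations, on log2(CPM + 0.5) for the latter, were tested by exact permutation in Python 3.11.15. Results were recomputed with a stricter and no filter, 4 scalings (upper quartile, RLE, total counts alone, Rplp0), DESeq2 1.42.0, limma 3.58.1 with voom or on FPKM, the replicate block and leaving out each liver. The intervals cover the fit, not errors of read assignment.

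The 10 genes and all gene lists, written by hand from general knowledge, were chosen with earlier results of these data known. Genes outside the set are named by a rule: the pathway genes with the 8 smallest p, 8 direct partners of the set, the 5 genes most like Ddit4, and the 2 most abundant genes of each regulator's target list. Tbc1d7, Ankhd1 and the cell markers Lyve1, Oit3, Pecam1, Kdr, Lrat and Des were added after their values were seen. Positions are from GENCODE M21 (GRCm38, the assembly of mm10).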

Additional observations from a re-analysis of the deposited data

Results flagged for a closer look

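Each of the 10 genes was checked in each group for a liver far from the other 5, which makes 20 checks, of which chance flags about 1. In 2 cases the gap to the nearest liver, divided by the range of the group, was above Dixon's critical value for 6 samples, and both concern Sedentary replicate 2. Deptor was at 65.0 CPM there, with the next sedentary liver at 79.4 CPM (gap over range 0.722). Eif4ebp2 was at 151 CPM, with the next at 177 CPM (0.679). Without this liver the log2 fold change of Deptor was -0.14 (edgeR adjusted p = 0.0411), and that of Eif4ebp2 was 0.22 (edgeR adjusted p = 0.0074).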

How the results depend on the processing

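Sesn1, Sesn2 and Tsc1 kept their direction and passed the test in all 23 alternatives. Rragd did so in all 22 that could test it, but these reuse the same low counts and add no support to its call. Requiring at least 10 counts in every library removes Rragd. The genes other than Ddit4 that passed numbered 4 to 6 over the 11 alternatives that kept all livers, beside 6, and 5 to 7 with each liver left out. The pathway list gave 24 to 34 and 27 to 36, beside 31, and all genes 4747 to 5502 and 4739 to 5222, beside 5229. The log2 fold change of Ddit4 ran from 3.4, with limma on log2(FPKM + 1), to 3.87. Library size scaling moved the balance of all calls from 2603 higher and 2626 lower to 1767 higher and 3735 lower, and limma on log2(FPKM + 0.1) to 1702 and 3714, with a median log2 fold change of -0.098 and -0.093.

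The replicate numbers do not pair the livers by any label. Same-numbered livers correlated from -0.099 to 0.16 in their deviations, and 2 of 6 matched their own number best. With the replicate block 4956 genes passed, and no call on the 9 genes changed. The Sesn2 share differed by the same 17.91 points, but its adjusted p was 0.0625, reached from the smallest unadjusted p that 6 pairs allow. With each liver left out, the share differed by 16.58 to 19.58 points and that of Eif4ebp3 by -1.68 to 0.75. The ratio of 4E-BP to Eif4e FPKM differed by 1.5 to 1.86.

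Some genes named outside the set, none ever past the threshold, changed sign. Rragc went to -0.008 with upper quartile, -0.084 with library size and -0.025 with Rplp0 scaling, to -0.083 and -0.077 with limma on log2(FPKM + 0.1) and log2(FPKM + 1), and ran from -0.019 to 0.042 with each liver left out. Under library size scaling and limma on these FPKM scales, in this order, Ldha went to -0.044, -0.046 and -0.046, Pgk1 to -0.048, -0.047 and -0.046, and Ctsb to -0.06, -0.056 and -0.056. The cause was not tested. Depth limits Sesn3 and Rragd, which had at most 38 counts in any liver.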

Other observations

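Genes of the set are known targets of several stress- and nutrient-responsive factors. The other targets of those factors were read from hand-written lists, by counts beside the 21.1% higher and 21.3% lower of all genes tested. The lists were written with earlier results of these data known, so these counts are a description only. All 14 glucocorticoid receptor targets rose, with a median log2 fold change of 1.71. Of these Tat, which starts tyrosine breakdown, and Pck1, of gluconeogenesis, are the most abundant, with changes of 1.83 and 1.93 (edgeR adjusted p = 1.03e-09 and 0.000531). Of 11 FOXO1 targets 10 rose and none fell (median 1.17), with Pck1 again and G6pc (0.81, edgeR adjusted p = 8.81e-06). Of 11 p53 targets tested, 5 rose, 1 fell and 5 did not pass (median 0.47). The most abundant of them, Ei24 and Cdkn1a, rose (0.81 and 2.05, edgeR adjusted p = 8.69e-08 and 0.000627). The lists share genes, such as Pck1 and Cdkn1a, and the shares of the targets that changed were not compared by a test.

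The target lists of 3 other factors had smaller median changes. Of 15 ATF4 targets tested, 4 rose and 3 fell (median -0.10), and the abundant ones were Atf5, which did not pass (-0.15, edgeR adjusted p = 0.114), and Shmt2, which fell by 0.14 on the log2 scale (edgeR adjusted p = 0.0374). Neither call was firm, since Atf5 passed under library size and Rplp0 scaling (edgeR adjusted p = 0.0171 and 0.0489), and Shmt2 did not pass without a filter, with the replicate block (edgeR adjusted p = 0.0652 and 0.0732) or with any of 7 livers left out (up to 0.103, without Exercise replicate 3). Of 12 HIF targets, 4 rose and 3 fell (median 0.06), with Ldha and Pgk1 both at 0.05 (edgeR adjusted p = 0.539 and 0.519). Of 13 TFEB and TFE3 targets, 2 rose and none fell (median 0.04), with Lamp1 and Ctsb at 0.14 and 0.04 (edgeR adjusted p = 0.119 and 0.626). Lamp1 passed without Sedentary replicate 5 (edgeR adjusted p = 0.0457).

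The transcript length implied by counts and FPKM, which moves with the mix of isoforms, was alike in both groups for genes of the set. Its median was 2751 bases in sedentary and 2764 in exercised livers for Sesn1 and 5605 and 5598 for Eif4ebp2, in which 1 sedentary liver stood at 5257.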
